A study of Mus musculus with 12 samples.

Results

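The genes described here are 6 members of the STAT family of transcription factors (*Stat2*, *Stat3*, *Stat4*, *Stat5a*, *Stat5b* and *Stat6*) and 3 inhibitors of cytokine signalling (*Socs1*, *Socs3* and *Cish*). They were taken by symbol from the gene count table, and all 9 were found among its 52550 genes and passed the filter on low counts that left 15885 protein-coding genes to test. The data are bulk RNA sequencing of whole lungs of C57BL/6J mice, in 4 groups of 3 mice, each mouse giving 1 library. WT (Adm+/+) mice received phosphate-buffered saline (WT PBS, replicates 3, 4 and 5) or lipopolysaccharide (WT LPS, replicates 9, 10 and 11), and so did mice with 1 functional copy of the adrenomedullin gene in every cell (*Adm*+/- PBS, replicates 6, 7 and 8; *Adm*+/- LPS, replicates 1, 2 and 12). LPS, an endotoxin of *Escherichia coli* O55:B5, was injected intraperitoneally at 6 mg/kg on each of postnatal days 3, 4 and 5, PBS was given in the same volume, and every lung was collected 6 h after the last injection. Replicates carry the numbers that the labels give their libraries. The question for these genes is which of them respond to LPS in the neonatal lung, and whether the response depends on the *Adm* copy number.

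Cytokine receptors of this class carry Janus kinases (JAKs), which phosphorylate STAT proteins. The STATs then pair, enter the nucleus and bind short palindromic DNA elements. *Stat3* acts downstream of interleukin 6 and granulocyte colony-stimulating factor, *Stat2* downstream of type I and type III interferons, *Stat4* downstream of interleukin 12, *Stat5a* and *Stat5b* downstream of growth hormone and granulocyte-macrophage colony-stimulating factor, and *Stat6* downstream of interleukins 4 and 13. SOCS proteins and Cish are themselves products of STAT target genes and block the receptor or its kinase, so that the pathway limits itself. RNA levels do not measure STAT phosphorylation, and no value here bears on it.

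Library totals ranged from 22382535 to 38062873 counts. Levels are given as CPM, the counts of a gene scaled to the library's reads on tested genes after TMM normalization. All 4 lung epithelial markers and all 6 endothelial markers examined were present in every library, with a summed epithelial level of 11778 to 15526 CPM. The endothelial sum was 2274 to 2452 CPM in WT PBS, 1912 to 2018 CPM in WT LPS, 2349 to 2480 CPM in *Adm*+/- PBS and 2125 to 2357 CPM in *Adm*+/- LPS. Of these 6 markers *Kdr* was called lower with LPS in WT (−0.79 on the log2 scale) and *Adm*+/- mice (−1.11), and *Tek* in *Adm*+/- mice (−0.70). The part of this shift in the values below was not tested. *Adm* itself was low and did not separate the genotypes. Its mean was 5.21 ± 1.66 CPM (SD, n = 3) in WT PBS and 3.69 ± 0.855 CPM in *Adm*+/- PBS, a fitted log2 difference of −0.50 (SE 0.32, adjusted p = 0.999). In LPS the means were 6.79 ± 2.03 and 4.65 ± 1.42 CPM (−0.55, SE 0.31, adjusted p = 0.480). Several libraries stood apart. Reads of *Gm26917* made up 16.6% of counts in WT PBS replicate 5 and 13.3% in *Adm*+/- PBS replicate 6, against 5.42 to 7.40% in the other 10. The summed level of 11 skeletal muscle markers was 916 to 2216 CPM in WT LPS and 21 to 58.6 CPM in the other 9 libraries. A squamous epithelium list of 11 genes summed to 3449 CPM in WT LPS replicate 9, 1766 in replicate 11 and 33 in replicate 10, and to at most 47.3 CPM elsewhere. The part of this muscle and squamous RNA in the WT values below was not tested. The summed level of 8 erythroid markers was 3050 CPM in WT PBS replicate 4 and 3855 CPM in *Adm*+/- PBS replicate 7, against 706 to 1650 CPM in the other 4 PBS libraries, 1223 to 3640 CPM in WT LPS and 1174 to 1548 CPM in *Adm*+/- LPS. Its part in the PBS values of *Stat3*, *Socs3* and *Stat2* was not tested either. In whole lung, a change in the number of cells of a type and a change in RNA per cell cannot be told apart.

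*Stat3* and *Socs3* responded to LPS in both genotypes, *Stat2* and *Stat5a* passed the threshold in *Adm*+/- mice, and *Socs1* fell in WT mice. A gene was called at a Benjamini-Hochberg adjusted p below 0.05 over all 15885 genes and an absolute log2 fold change above 0.5, with edgeR's quasi-likelihood test. In WT mice 3 of the 9 genes were called, 2 higher and 1 lower, where 17.6% of all tested genes were called, 10.5% higher and 7.09% lower. All 3 WT calls were lost when only the 6 WT libraries were fitted, with adjusted p values of 0.147 for *Stat3*, 0.126 for *Socs3* and 0.0530 for *Socs1*. Their log2 fold changes in that fit, 0.85, 1.59 and −0.97, hardly moved from those of the main fit. In *Adm*+/- mice 4 of the 9 were called, all higher, where 25.0% of all tested genes were called, 12.8% higher and 12.2% lower. In levels, the 3 LPS mice lay wholly above the 3 PBS mice for 1 member in WT (*Stat6*; 18.3% of all tested genes) and wholly below for 1 (*Socs1*; 17.9%). In *Adm*+/- mice they lay above for 6 members (26.6%) and below for 0 (27.1%). The median log2 fold change of the 9 genes was 0.41 in WT and 0.39 in *Adm*+/- mice, and that of all tested genes was 0.01 and −0.01. No member was called for a difference between genotypes in the LPS response, a comparison that called 23 genes of the whole table (0.145%), all of them lower. With DESeq2 the same comparison called 168 genes, 46 of them higher and 122 lower, and again no member.

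**Figure D1:**
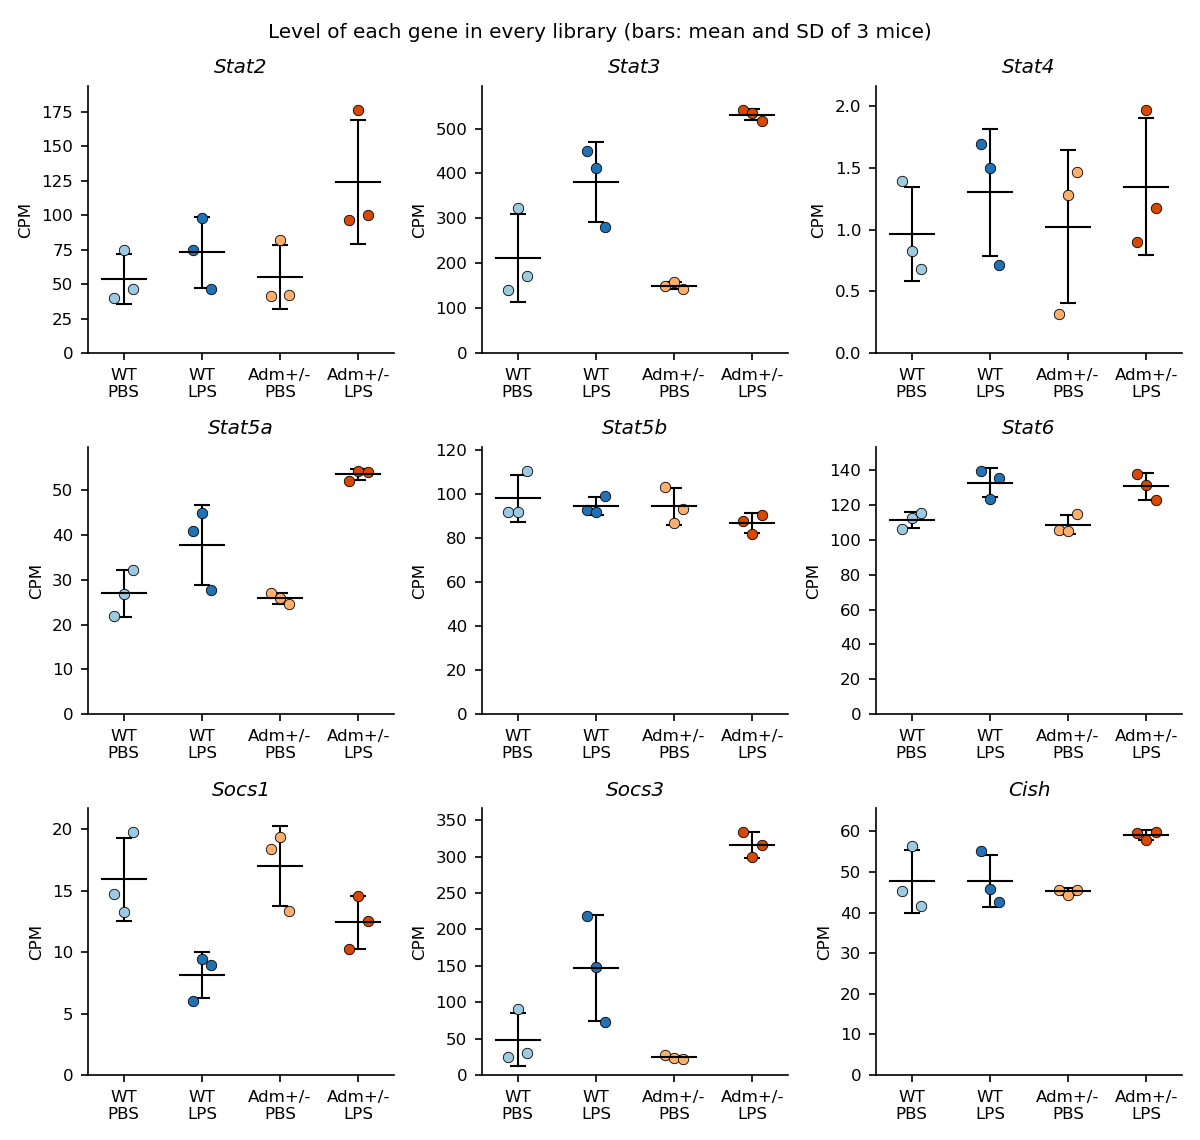
Level of each of the 9 genes in CPM (vertical axes, linear, from 0) in the 4 groups, with 1 point per mouse, in order of replicate number as listed for each group, and lines for the mean and SD of 3 mice. *Stat3*, *Stat5a*, *Socs3* and *Cish* lie close together and highest in *Adm*+/- LPS, while the WT LPS mice are spread.

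Per kilobase of exon, the order of the genes changed with treatment. In *Adm*+/- PBS, the highest per-length mean was that of *Stat6* at 24.7 CPM per kb, followed by *Stat5b* at 17.0 and *Stat3* at 15.7. *Stat2* at 9.28, *Socs3* at 8.37 and *Cish* at 7.05 CPM per kb came next, then *Socs1* at 5.86, *Stat5a* at 3.63 and *Stat4* at 0.264. In *Adm*+/- LPS, *Socs3* led at 109.3 CPM per kb, ahead of *Stat3* at 55.7, *Stat6* at 29.7, *Stat2* at 20.9, *Stat5b* at 15.7, *Cish* at 9.21, *Stat5a* at 7.51, *Socs1* at 4.27 and *Stat4* at 0.348. In WT PBS the order began with *Stat6* at 25.3, *Stat3* at 22.2, *Stat5b* at 17.7 and *Socs3* at 16.8 CPM per kb. In WT LPS it began with *Socs3* at 50.7, *Stat3* at 39.97 and *Stat6* at 30.2 CPM per kb. In WT mice the SDs were wide, at 97.5 CPM for *Stat3* and 36.5 CPM for *Socs3* in PBS, so the places of *Stat6*, *Stat3*, *Stat5b* and *Socs3* next to each other in WT PBS do not differ beyond their spread. In WT LPS *Socs3* (SD 25.2 CPM per kb) and *Stat3* (9.28) do not either, and in replicate 11 *Socs3*, at 25.2 CPM per kb, lay below *Stat3*, at 29.5. *Stat3* and *Stat6* overlapped there too, since the highest *Stat6* mouse stood at 31.7 CPM per kb. In *Adm*+/- LPS the highest *Stat2* mouse, at 29.7 CPM per kb, was above the lowest *Stat6* mouse, at 27.9. Nor do *Stat5b* (SD 1.49 CPM per kb) and *Stat3* (0.759) in *Adm*+/- PBS, *Stat2* (3.91) and *Socs3* (0.856) there, or *Stat2* (7.59) and *Stat5b* (0.799) in *Adm*+/- LPS.

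*Stat3*, the acute-phase STAT, lies on chromosome 11 of mm10 from 100885098 to 100939540 on the minus strand (ENSMUSG00000004040). Its levels in WT PBS were 140.1, 322 and 171 CPM in replicates 3, 4 and 5, and in WT LPS 450.0, 411 and 281 CPM in replicates 9, 10 and 11. The WT groups overlapped, because replicate 4 of PBS exceeded replicate 11 of LPS. In *Adm*+/- PBS the levels were 149, 157 and 143 CPM in replicates 6, 7 and 8, and in *Adm*+/- LPS 541, 535 and 517 CPM in replicates 1, 2 and 12. These groups lay far apart, and each was tight. The fitted log2 fold change was 0.85 in WT (SE 0.26, adjusted p = 0.0392), a fold of 1.80, and 1.82 in *Adm*+/- mice (SE 0.27, adjusted p = 0.000528), a fold of 3.54. The difference between these responses was 0.97 (SE 0.37, unadjusted p = 0.0219, adjusted p = 0.508), so it was not past the threshold. The WT call was lost in 9 of the 12 fits that each left out 1 library, at adjusted p values of 0.0553 to 0.159. Where the lost fit left out an *Adm*+/- library, the WT value stayed at 0.84 to 0.85. The lowest WT value was 0.62, without WT PBS replicate 3. Leaving out WT PBS replicate 4 gave the highest WT value, 1.29, and the lowest difference between genotypes, 0.53. The *Adm*+/- call held in all 12 of these fits, from 1.79 to 1.86.

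*Socs3*, whose product binds the gp130 and granulocyte colony-stimulating factor receptors and inhibits their JAKs, had the largest response of the 9 genes. It lies on chromosome 11 from 117966079 to 117970047 on the minus strand (ENSMUSG00000053113). Its levels in WT PBS were 24.2, 90.5 and 30.7 CPM, and in WT LPS 218, 149 and 72.7 CPM, in the order of replicates given above. Again PBS replicate 4 exceeded LPS replicate 11. In *Adm*+/- PBS they were 26.9, 23.6 and 22.1 CPM and in *Adm*+/- LPS 334, 299 and 315 CPM. All 3 *Adm*+/- LPS mice stood above every other mouse of the study. The log2 fold change was 1.597 in WT (SE 0.46, adjusted p = 0.0305) and 3.71 in *Adm*+/- mice (SE 0.50, adjusted p = 0.000322), folds of 3.03 and 13.1. The difference of 2.11 (SE 0.65) had an unadjusted p of 0.00702 and an adjusted p of 0.403. Without WT PBS replicate 4 the WT fold change was 2.42 on the log2 scale and the difference 1.29. The WT call was lost without WT PBS replicate 3 or 5, or without WT LPS replicate 9 or 10 (adjusted p = 0.0572 to 0.146), while the *Adm*+/- value stayed between 3.64 and 3.78 and kept its call. Read against neutrophils, WT PBS replicate 4 also had the highest summed level of 10 neutrophil markers among PBS mice, 188 CPM against 34.2 to 60.8 CPM in the other 5. In LPS that sum was 1787 to 3088 CPM in WT and 1674 to 2022 CPM in *Adm*+/- mice. The summed level of 12 monocyte and macrophage markers was 996 to 1246 CPM over the 6 PBS mice and 1560 to 2278 CPM over the 6 LPS mice. Of the 12, 10 were called higher in WT (10.5% of all tested genes). In *Adm*+/- mice 9 were called higher (12.8%) and 1 (*Cx3cr1*) lower (12.2%). The part of neutrophil, monocyte and macrophage RNA in the *Socs3* and *Stat3* values was not tested.

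**Figure D2:**
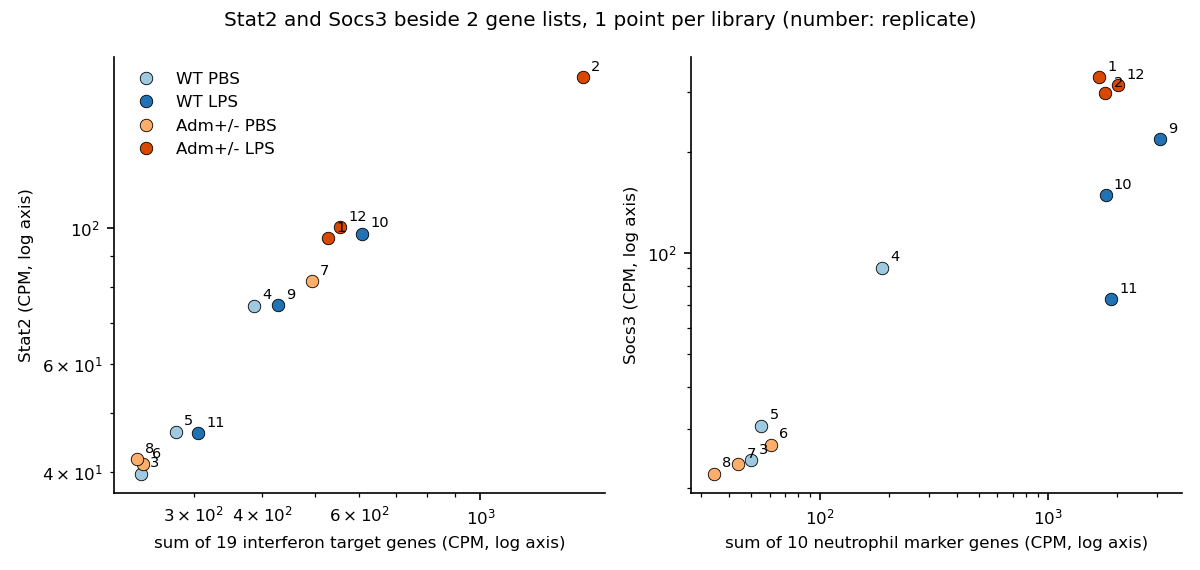
*Stat2* against the summed level of 19 interferon target genes (left) and *Socs3* against that of 10 neutrophil marker genes (right), both in CPM on log axes, with 1 point per library labelled by replicate number and coloured by group. *Adm*+/- LPS replicate 2 is highest for *Stat2* and for the interferon targets, and the 3 *Adm*+/- LPS libraries are highest for *Socs3* at neutrophil sums within or below the WT LPS range.

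Within a library, the per-length ratio of *Socs3* to *Stat3* compares the inhibitor with the factor that induces it. The ratio averaged 0.695 ± 0.199 (SD, n = 3) in WT PBS, 1.21 ± 0.374 in WT LPS, 0.532 ± 0.0539 in *Adm*+/- PBS and 1.96 ± 0.105 in *Adm*+/- LPS. It was 0.925 in WT PBS replicate 4 and 0.852 in WT LPS replicate 11, so the WT groups overlapped. The *Adm*+/- LPS values of 1.84 to 2.03 lay above all others. These ratios carry no test.

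**Figure D3:**
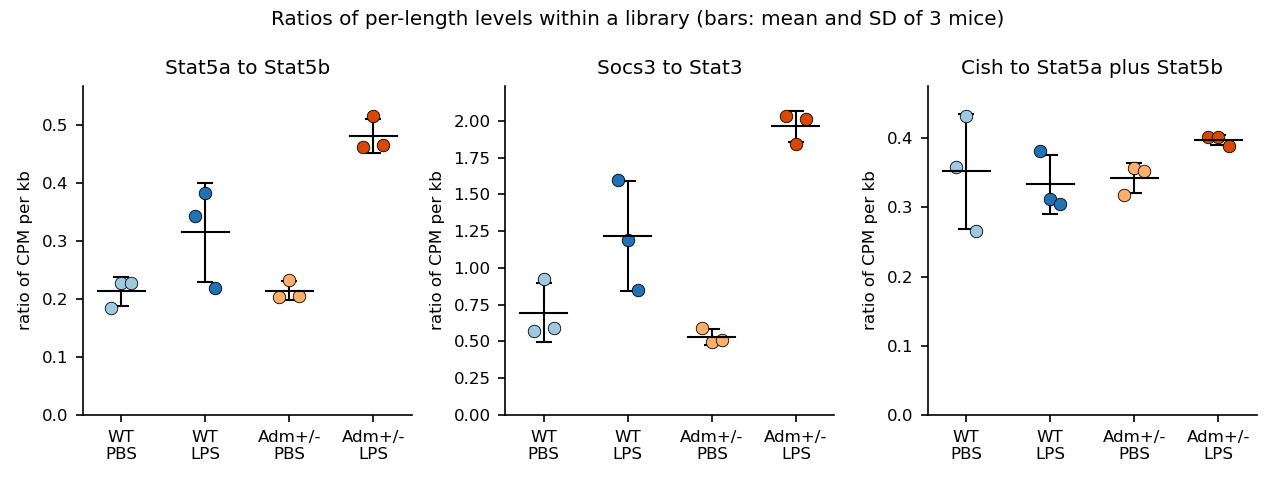
Ratios of per-length levels (CPM per kb) within each library for *Stat5a* to *Stat5b*, *Socs3* to *Stat3*, and *Cish* to the sum of *Stat5a* and *Stat5b*, with 1 point per mouse and lines for the mean and SD of 3 mice. The *Stat5a* and *Socs3* ratios are highest in the 3 *Adm*+/- LPS mice, and the *Cish* ratio stays between 0.265 and 0.432 in all 12.

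The promoters of the inhibitors and of *Stat2* are shown because the classical STAT and interferon elements can be read in them. The windows come from RefSeq (build GRCm38.p6), which gave 12 start sites for the 9 genes, and run from 250 bases before the start to 30 bases into the transcript. Motifs were searched on both strands over 250 bases before to 50 after each start. Capitals mark STAT palindromes (TTC and GAA separated by any 3 or any 4 bases) and the interferon-type repeat (GAAA and GAAA separated by any 2 bases, or TTTC and TTTC where it lies on the other strand). The palindrome with 3 bases occurred in 8.29%, that with 4 in 6.94% and the repeat in 3.43% of 32817 RefSeq promoter windows of the same length.
Socs3, minus strand, chr11:117969337-117969616: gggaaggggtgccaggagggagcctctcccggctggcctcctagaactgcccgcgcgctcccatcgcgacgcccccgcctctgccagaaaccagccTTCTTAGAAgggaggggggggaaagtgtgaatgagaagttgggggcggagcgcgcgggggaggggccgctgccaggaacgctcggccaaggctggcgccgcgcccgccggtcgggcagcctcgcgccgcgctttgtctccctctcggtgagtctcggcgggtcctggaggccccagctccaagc
Cish, plus strand, chr9:107296409-107296688: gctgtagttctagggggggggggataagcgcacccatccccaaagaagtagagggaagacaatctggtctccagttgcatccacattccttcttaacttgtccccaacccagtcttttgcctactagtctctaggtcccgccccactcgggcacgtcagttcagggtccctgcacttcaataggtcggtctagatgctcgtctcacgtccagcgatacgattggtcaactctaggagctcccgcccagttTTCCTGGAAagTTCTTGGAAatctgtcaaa
Socs1, minus strand, chr16:10785507-10785786: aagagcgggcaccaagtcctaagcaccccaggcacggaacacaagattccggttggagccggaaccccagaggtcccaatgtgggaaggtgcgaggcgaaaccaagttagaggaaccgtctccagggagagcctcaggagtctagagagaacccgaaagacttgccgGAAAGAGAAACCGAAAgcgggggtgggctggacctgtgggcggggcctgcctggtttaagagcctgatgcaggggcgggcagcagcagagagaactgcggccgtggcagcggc
Stat2, plus strand, chr10:128270248-128270527: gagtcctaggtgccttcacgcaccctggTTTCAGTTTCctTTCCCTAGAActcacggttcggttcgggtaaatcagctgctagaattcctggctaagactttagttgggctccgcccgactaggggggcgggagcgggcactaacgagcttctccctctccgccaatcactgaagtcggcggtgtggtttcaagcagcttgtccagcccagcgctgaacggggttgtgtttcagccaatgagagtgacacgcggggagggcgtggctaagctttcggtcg
The *Socs3* window held 1 palindrome with 3 bases, which began 154 bases before the start. *Cish* held 2 of that kind, the first at base 1 of the transcript and the other at base 12. *Socs1* held 2 overlapping interferon-type repeats, 83 and 77 bases before its start. *Stat2* held an interferon-type repeat on the other strand 222 bases before the start and a palindrome with 4 bases 210 bases before it. A second start of *Stat4* held the interferon-type repeat 97 bases upstream, and the windows of *Stat3*, *Stat5a*, *Stat5b* and *Stat6* held none of the 3 motifs. Gencode places the starts of *Socs3* and *Cish* 681 and 633 bases farther upstream than RefSeq does. A match is a run of letters and not evidence of binding.

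*Socs1*, an inhibitor of JAKs that is known as an interferon-induced gene, went the other way. It lies on chromosome 16 from 10782240 to 10785536 on the minus strand (ENSMUSG00000038037). Its levels were 14.8, 13.3 and 19.8 CPM in WT PBS and 6.01, 9.48 and 8.92 CPM in WT LPS, and all 3 LPS mice were below all 3 PBS mice. In *Adm*+/- mice they were 18.4, 19.4 and 13.3 CPM in PBS and 10.2, 14.5 and 12.5 CPM in LPS, where replicate 2 of LPS exceeded replicate 8 of PBS. The log2 fold change of *Socs1* was −0.97 in WT (SE 0.23, adjusted p = 0.0125), a 1.96-fold lower level, and −0.45 in *Adm*+/- mice (SE 0.22, adjusted p = 0.147), and the difference between genotypes was 0.52 (SE 0.32, adjusted p = 0.813). The WT call was lost without WT LPS replicate 9 (−0.79, adjusted p = 0.0551), where the difference between genotypes was 0.34. That difference was 0.34 without WT PBS replicate 5 as well. Of 10 T cell markers, 1 was called lower in WT (7.09% of all tested genes) and 4 in *Adm*+/- mice (12.2%), none higher. Their sum was 26.8 to 32.1 CPM in WT PBS, 22.4 to 35.4 CPM in WT LPS, 24.8 to 32.5 CPM in *Adm*+/- PBS and 19.7 to 22.8 CPM in *Adm*+/- LPS. Within it, *Bcl11b* stood at 6.63 ± 0.796 CPM (SD, n = 3) in WT PBS and 9.63 ± 6.28 CPM in WT LPS. The sum of 8 thymocyte markers was 15.01 to 24.4 CPM in WT PBS, 15.1 to 19.8 CPM in WT LPS, 17.3 to 23.7 CPM in *Adm*+/- PBS and 10.2 to 11.1 CPM in *Adm*+/- LPS. Most of that sum was *Cd1d1* alone. Its means were 16.4 and 9.63 CPM in WT PBS and LPS, and 17.7 and 8.31 CPM in *Adm*+/- PBS and LPS. Only 5 of the 8 passed the filter on low counts. Of these, 1 was called higher and 1 lower in WT, and 2 lower in *Adm*+/- mice. Of 8 tested NK cell markers, 2 were called higher in WT and 4 in *Adm*+/- mice, none lower. Their sum was 6.52 to 8.54 CPM in WT PBS and 12.4 to 14.7 CPM in WT LPS. In *Adm*+/- mice it was 6.80 to 8.52 CPM in PBS and 12.0 to 19.8 CPM in LPS. Of 7 B cell markers, 0 were called in either genotype. Their sums were 32.7 to 57.2 and 43.4 to 53.2 CPM in WT PBS and LPS, and 35.4 to 48.3 and 32.2 to 34.9 CPM in *Adm*+/- PBS and LPS. The part of lymphocyte RNA in the *Socs1* values was not tested.

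*Cish*, a STAT5-induced inhibitor, lies on chromosome 9 from 107296026 to 107302784 (ENSMUSG00000032578) and overlaps exons of *Gm17041* and *Gm17040* on the other strand. In WT mice its levels were 45.2, 56.4 and 41.6 CPM in PBS and 55.1, 45.7 and 42.7 CPM in LPS, with no visible shift. In *Adm*+/- mice they were 45.7, 44.3 and 45.7 CPM in PBS and 59.7, 57.8 and 59.8 CPM in LPS, without overlap. The log2 fold change was 0.00 in WT (SE 0.13, adjusted p = 0.990) and 0.39 in *Adm*+/- mice (SE 0.13, adjusted p = 0.0374), the latter below the fold threshold. The difference of 0.38 (SE 0.18) had an adjusted p of 0.647, and it was 0.25 without WT PBS replicate 4. The per-length ratio of *Cish* to *Stat5a* plus *Stat5b* was 0.342 ± 0.0218 (SD, n = 3) in *Adm*+/- PBS and 0.398 ± 0.00755 in *Adm*+/- LPS. In WT mice it was 0.352 ± 0.0837 in PBS and 0.333 ± 0.0426 in LPS, and WT PBS replicate 4, at 0.432, exceeded all 3 *Adm*+/- LPS mice.

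*Stat2*, the interferon STAT that works with *Irf9* in the complex ISGF3, lies on chromosome 10 from 128270559 to 128292849 (ENSMUSG00000040033). Its levels were 39.8, 74.6 and 46.6 CPM in WT PBS and 74.9, 97.8 and 46.4 CPM in WT LPS, and the groups overlapped. They were 41.2, 81.8 and 42 CPM in *Adm*+/- PBS and 96.2, 176.0 and 100.1 CPM in *Adm*+/- LPS, without overlap. Replicate 7 of PBS and replicate 2 of LPS were the high mice of their groups. The log2 fold change was 0.44 in WT (SE 0.36, adjusted p = 0.400) and 1.17 in *Adm*+/- mice (SE 0.37, adjusted p = 0.0317), and their difference was 0.73 (SE 0.51, adjusted p = 0.867). With 1 library left out the WT value ranged from 0.18 (without WT LPS replicate 10) to 0.76 (without WT PBS replicate 4). Omitting *Adm*+/- LPS replicate 2 gave the lowest difference, 0.39, and omitting *Adm*+/- PBS replicate 7 the highest, 1.14. The *Adm*+/- call was lost without *Adm*+/- PBS replicate 6 or 8 and without *Adm*+/- LPS replicate 2, where the value was 0.83 (adjusted p = 0.136). Without *Adm*+/- PBS replicate 7 it was 1.57. The same mice were high in interferon target genes. The summed level of 19 such genes was 493 CPM in *Adm*+/- PBS replicate 7 against 243 and 236 CPM in the other 2, and 1536 CPM in *Adm*+/- LPS replicate 2 against 528 and 555 CPM. WT PBS replicate 4, with *Stat2* at 74.6 CPM, had a sum of 387 CPM against 241 and 278 CPM. Of the 19 targets, 1 was called higher in WT (10.5% of all tested genes) and 11 in *Adm*+/- mice (12.8%). Their median log2 fold changes were 0.77 and 1.63, with none called for the difference. *Oasl1* rose by 2.21 in WT mice, at an adjusted p of 0.0406, and by 3.59 in *Adm*+/- mice, at an adjusted p of 0.00299. *Ifih1*, a sensor of viral RNA, had 1.12 in WT (adjusted p = 0.0563) and rose by 1.68 in *Adm*+/- mice (adjusted p = 0.00677). Among the receptors and the partner of *Stat2*, 0 of 4 were called higher in WT (10.5% of all tested genes) and 2 in *Adm*+/- mice (12.8%). Of these, *Ifnar2* rose by 0.91 in *Adm*+/- mice (adjusted p = 0.000695) and had 0.31 in WT (adjusted p = 0.127).

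*Stat5a* and *Stat5b*, closely related factors encoded side by side on chromosome 11, are given together. *Stat5a* was called higher in *Adm*+/- mice and *Stat5b* in neither genotype, and the difference between both genes was not tested. *Stat5a* spans 100859351 to 100885169 on the plus strand (ENSMUSG00000004043) and *Stat5b* 100780731 to 100850724 on the minus strand (ENSMUSG00000020919), 8626 bases away. *Stat5a* levels were 21.8, 26.9 and 32.2 CPM in WT PBS, 40.9, 45.0 and 27.8 CPM in WT LPS, 27.0, 26.0 and 24.5 CPM in *Adm*+/- PBS and 52.2, 54.3 and 54.2 CPM in *Adm*+/- LPS. The *Adm*+/- groups lay apart and the WT groups overlapped. *Stat5b* levels were 91.9, 91.8 and 110.2 CPM, 92.6, 91.5 and 99.0 CPM, 103.1, 86.7 and 92.9 CPM, and 87.7, 81.9 and 90.5 CPM in the same groups. The log2 fold change of *Stat5a* was 0.49 in WT (SE 0.17, adjusted p = 0.0640) and 1.05 in *Adm*+/- mice (SE 0.18, adjusted p = 0.00111), with a difference of 0.56 (SE 0.25, adjusted p = 0.613). That of *Stat5b* was −0.05 in WT (SE 0.10, adjusted p = 0.733) and −0.12 in *Adm*+/- mice (SE 0.10, adjusted p = 0.406). With 1 library left out, the *Adm*+/- value of *Stat5b* ranged from −0.18 to −0.06. The WT value of *Stat5a* passed the threshold without WT PBS replicate 5 (0.64, adjusted p = 0.0292) or WT LPS replicate 11 (0.67, adjusted p = 0.0112), and its *Adm*+/- call held in all 12 fits (1.01 to 1.08). The per-length ratio of *Stat5a* to *Stat5b* was 0.213 ± 0.0246 (SD, n = 3) in WT PBS, 0.314 ± 0.0853 in WT LPS, 0.214 ± 0.0165 in *Adm*+/- PBS and 0.481 ± 0.0297 in *Adm*+/- LPS. Reads of near-identical stretches may have been split between both genes, and *Stat5a* also shares 72 exonic bases with *Stat3* on the opposite strand, where the strand option of the counting is not given in the sources used here.

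*Stat6* and *Stat4* showed small or poorly measured values. *Stat6*, the interleukin 4 and 13 factor, lies on chromosome 10 from 127642986 to 127660957 (ENSMUSG00000002147) and overlaps exons of *Nab2* on the other strand. Its levels were 106.4, 112.7 and 115.2 CPM in WT PBS, 139, 124 and 136 CPM in WT LPS, 105.9, 105.3 and 115.1 CPM in *Adm*+/- PBS and 138, 132 and 123 CPM in *Adm*+/- LPS. In both genotypes every LPS mouse was above every PBS mouse. The log2 fold changes were 0.26 (SE 0.09, adjusted p = 0.0573) and 0.27 (SE 0.09, adjusted p = 0.0382), below the fold threshold, and their difference was 0.01 (SE 0.12, adjusted p = 0.999). *Stat4*, the interleukin 12 factor of NK and T cells, lies on chromosome 1 from 51987148 to 52107189 (ENSMUSG00000062939) and overlaps exons of *Gm28177* on the same strand, so its counts are uncertain. Its levels ran from 0.316 to 1.97 CPM, which rest on 6 to 55 counts per library. The log2 fold changes of *Stat4* were 0.41 in WT (SE 0.52, adjusted p = 0.597) and 0.35 in *Adm*+/- mice (SE 0.51, adjusted p = 0.639). The WT value ranged from 0.16 without WT LPS replicate 9 to 0.79 without WT PBS replicate 3. Its counts within *Adm*+/- PBS ran from 6 to 38, a 4.66-fold spread in CPM between mice of 1 group.

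**Figure D4:**
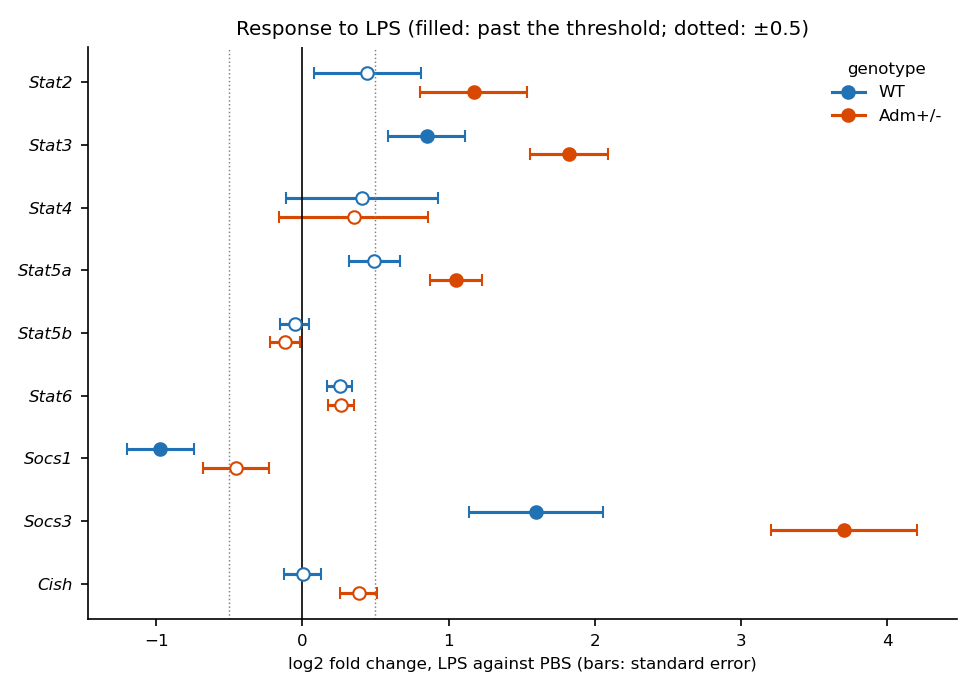
Fitted log2 fold change of LPS against PBS (horizontal axis) with its standard error for each gene in WT and *Adm*+/- mice, filled where the gene was past the threshold, with dotted lines at ±0.5. *Socs3* and *Stat3* are filled in both genotypes, *Stat2* and *Stat5a* in *Adm*+/- mice, and *Socs1* lies on the negative side.

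Comparing genotypes directly, none of the 9 genes was called in PBS or in LPS. In PBS no gene of the whole table was called (0.0%) by edgeR, DESeq2 or limma-voom, with 344, 399 and 234 genes at an unadjusted p below 0.05. The fitted PBS values were −1.002 for *Socs3* (SE 0.46) and −0.49 for *Stat3* (SE 0.26), and between −0.08 and 0.10 for the other 7, all with an adjusted p of 0.999. Without WT PBS replicate 4 the *Socs3* value was −0.18 and the *Stat3* value −0.05. In LPS 325 genes were called (2.05%). The fitted LPS values were 1.11 for *Socs3* (SE 0.45, adjusted p = 0.277), 0.76 for *Stat2* (adjusted p = 0.378), 0.61 for *Socs1* (SE 0.23, adjusted p = 0.220), 0.50 for *Stat5a* (SE 0.17, adjusted p = 0.186), 0.48 for *Stat3* (adjusted p = 0.459) and 0.30 for *Cish* (SE 0.13, adjusted p = 0.286). The *Stat2* value was 0.43 without *Adm*+/- LPS replicate 2, and without WT LPS replicate 11 the *Stat3* value was 0.30 and the *Stat5a* value 0.32. With 1 library left out these values ranged from 0.43 to 1.03 for *Stat2*, 0.30 to 0.62 for *Stat3*, 0.32 to 0.64 for *Stat5a* and 0.78 to 1.52 for *Socs3*, none of them called. In 5 of the 9 genes (*Stat3*, *Stat5a*, *Socs1*, *Socs3* and *Cish*) all 3 *Adm*+/- LPS mice were above all 3 WT LPS mice, and in 1 (*Stat5b*) all were below. Of all tested genes, 12.2% were separated upward in this way and 12.4% downward. The difference between genotypes in the LPS response was fitted higher for 7 of the 9 genes, where 48.8% of all tested genes were fitted higher, with a median of 0.52 against −0.01 for all tested genes. An unadjusted p below 0.05 was found for 3 members (*Socs3*, *Stat3* and *Stat5a*) and for 1247 of the 15885 tested genes.

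**Figure D5:**
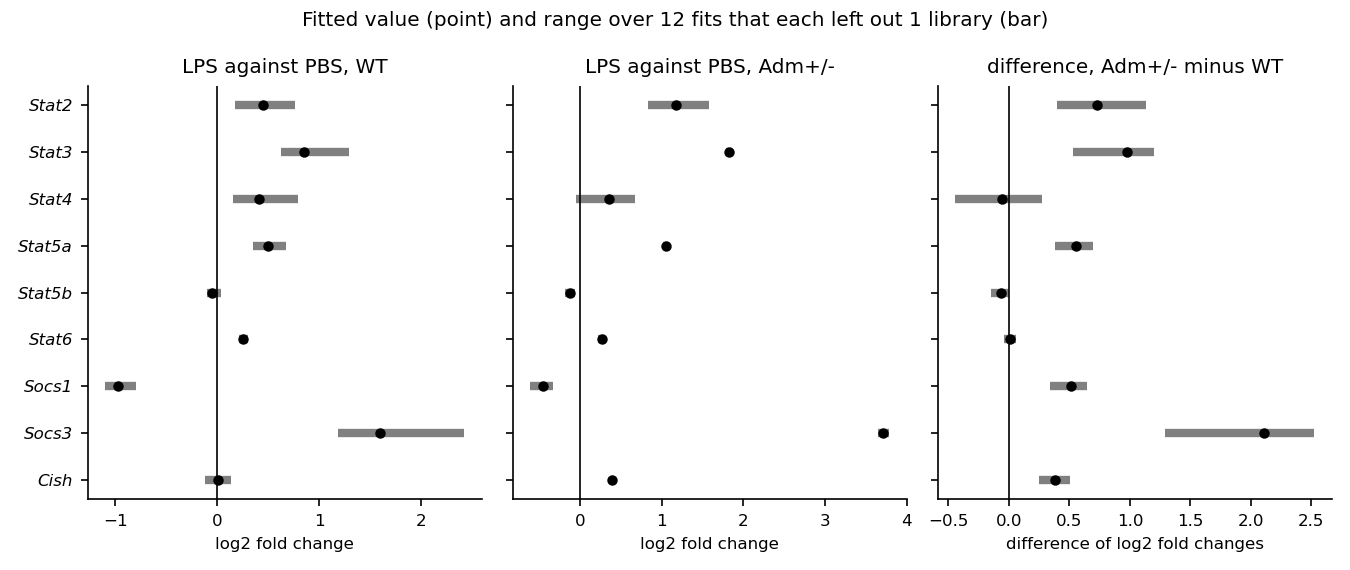
Fitted log2 values (points) and their range over 12 fits that each left out 1 library (grey bars) for LPS against PBS in WT and in *Adm*+/- mice and for the difference between genotypes. *Stat3*, *Stat5a* and *Socs3* have narrow ranges in *Adm*+/- mice and wide ones in WT mice, where *Socs3* runs from 1.19 to 2.42.

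The other genes of the pathway were counted in lists written from general knowledge. Some genes are on more than 1 list and are counted in each, so the counts below are not separate evidence. Among them are *Osmr* (*Stat3* receptors and targets), *Il4ra* (*Stat6* receptors and *Stat3* targets) and *Bcl2l1* and *Pim1* (*Stat3* and *Stat5* targets). Others are *Osm* (*Stat3* cytokines), *Socs2* (other SOCS) and *Il2ra* (*Stat5* receptors), all of them also *Stat5* targets. The counts are to be read against the 10.5% of all tested genes called higher and 7.09% lower in WT, and the 12.8% and 12.2% in *Adm*+/- mice. Of the 4 JAKs, 2 were called higher in WT and 3 in *Adm*+/- mice. *Jak2* rose by 0.68 (adjusted p = 0.00758) and 1.21 (adjusted p = 0.000171), and *Jak1* by 0.51 (adjusted p = 0.0226) and 0.98 (adjusted p = 0.000384). *Jak3* had 0.60 in WT (adjusted p = 0.0902) and rose by 1.45 in *Adm*+/- mice (adjusted p = 0.00111). Of the 5 other SOCS genes, 0 were called in WT and 1 in *Adm*+/- mice. That gene, *Socs2*, an inhibitor of growth hormone signalling, had 0.08 in WT (adjusted p = 0.719) and rose by 0.72 in *Adm*+/- mice (adjusted p = 0.00497). Of 8 other inhibitors, 2 were called higher in WT, and 3 higher and 1 lower in *Adm*+/- mice. The phosphatase gene *Ptpn1* rose by 0.94 (adjusted p = 0.0151) and 1.84 (adjusted p = 0.000245), and *Ptpn6*, known for its blood cell expression, by 1.43 (adjusted p = 0.000529) and 1.37 (adjusted p = 0.000285).

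Upstream of *Stat3*, 4 of 8 tested cytokines were called higher in WT, and 4 higher and 2 lower in *Adm*+/- mice. *Csf3*, which encodes granulocyte colony-stimulating factor, rose by 2.77 (SE 0.74, adjusted p = 0.0232) and 5.19 (SE 0.74, adjusted p = 0.000444), from means of 0.278 and 0.184 CPM in PBS. *Osm* rose by 1.597 (adjusted p = 0.0357) and 2.49 (adjusted p = 0.00306), and *Il10* by 3.34 (adjusted p = 0.00959) and 3.63 (adjusted p = 0.00432). *Clcf1*, the most abundant of these cytokine genes at a mean of 16.5 CPM, had −0.31 in WT (adjusted p = 0.254) and fell by 0.60 in *Adm*+/- mice (adjusted p = 0.0327). Of 10 receptor genes, 6 were called higher in WT and 7 in *Adm*+/- mice. *Csf3r*, which neutrophils carry, rose by 2.66 (adjusted p = 7.55e-05) and 2.82 (adjusted p = 4.84e-05), and *Il6st*, the gp130 chain, by 0.73 (adjusted p = 0.0291) and 1.66 (adjusted p = 0.000248). *Il6ra* rose by 1.45 (adjusted p = 0.000161) and 1.31 (adjusted p = 0.000135). Downstream, 20 of 30 *Stat3* targets were called higher and 1 lower in WT, and 28 higher in *Adm*+/- mice, with medians of 1.46 and 3.38. That list includes *Socs3*. All 30 were fitted higher in the difference between genotypes (median 1.35), and none was called. In PBS 2 of the 30 were fitted higher in *Adm*+/- than in WT mice (median −0.45), with none called. Their summed level in PBS was 2006, 3075 and 2805 CPM in WT replicates 3, 4 and 5 and 1969 to 2456 CPM in *Adm*+/- mice. Their mean log2 CPM was 5.36 in WT PBS replicate 4 and 3.83 to 4.16 in the other 5 PBS mice. In LPS the sum ran from 10302 to 11425 CPM in *Adm*+/- LPS and was 8297, 6692 and 3747 CPM in WT LPS replicates 9, 10 and 11. *Cd14*, a co-receptor for LPS, rose by 2.46 (adjusted p = 0.000545) and 4.65 (adjusted p = 4.02e-05). Its difference of 2.19 (SE 0.43) had an adjusted p of 0.106. *Lcn2*, which neutrophils also carry, rose by 3.99 (adjusted p = 0.000266) and 5.43 (adjusted p = 5.91e-05).

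Upstream of *Stat5a* and *Stat5b*, 5 of 13 receptor genes were called higher and 1 lower in WT, and 7 higher and 1 lower in *Adm*+/- mice. *Csf2rb*, the common beta chain, rose by 1.75 (adjusted p = 0.000856) and 2.53 (adjusted p = 7.68e-05), while *Ghr*, the growth hormone receptor, had −0.22 (adjusted p = 0.255) and −0.26 (adjusted p = 0.152). The ligand list gave 2 and 3 called of 6, with *Csf2* rising by 1.67 (SE 0.36, adjusted p = 0.00795) and 3.34 (SE 0.37, adjusted p = 0.000111). Of 13 *Stat5* targets, which include *Cish*, 5 were called higher and 1 lower in WT, and 8 and 1 in *Adm*+/- mice. *Pim1*, a kinase gene that is also on the *Stat3* list, rose by 0.95 (adjusted p = 0.0229) and 2.12 (adjusted p = 0.000203). The genotypes lay closer for *Tnfrsf1b*, at 1.73 (adjusted p = 0.000161) and 2.09 (adjusted p = 5.41e-05), and *Bcl6*, at 1.44 (adjusted p = 0.00132) and 1.74 (adjusted p = 0.000220). For *Stat6*, 2 of 3 receptor and cytokine genes were called higher in each genotype, among them *Il4ra*, which rose by 1.02 (adjusted p = 0.0172) and 2.20 (adjusted p = 0.000172). Of 17 *Stat6* targets, 6 were called higher and 1 lower in WT, and 7 and 2 in *Adm*+/- mice. Of 5 cytokine and receptor genes of the *Stat4* pathway, 3 and 4 were called higher, with *Il12rb1* rising by 1.51 (adjusted p = 0.00709) and 1.01 (adjusted p = 0.0287). In the difference between genotypes, no gene of any of these pathway lists was called. Between genotypes in LPS, where 2.05% of all tested genes were called, 4 list genes were called higher and 3 lower, of which 6 are given here, chosen after their values were seen. Higher in *Adm*+/- LPS were *Cd14* of the *Stat3* targets (1.68, adjusted p = 0.0159), *Csf2* (1.42, adjusted p = 0.0494), and *Ccl22* (2.49, adjusted p = 0.0345) and *Fcer2a* (1.32, adjusted p = 0.0274) of the *Stat6* targets. Lower were *Il11* of the *Stat3* cytokines (−2.08, adjusted p = 0.0264) and *Alox15* of the *Stat6* targets (−5.003, adjusted p = 0.0233). *Il11* rests on only 1 to 19 counts per library. In the same comparison the skeletal muscle and squamous epithelium lists had median log2 values of −5.82 and −6.29. The part of such RNA in the *Alox15* value was not tested.

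The genes with the most similar profiles were found by the root mean square distance of centred log2 CPM over the 12 libraries, among 14601 genes with a mean of at least 1 CPM. For *Stat3* they were *Irs2* at a distance of 0.131, *Fut4* at 0.142 and *Ptpn1* at 0.156, where the SD of *Stat3* itself was 0.781. For *Socs3* (SD 1.54) they were *Bcl3* at 0.117, *Cebpd* at 0.202 and *Atp6v0a4* at 0.354. For *Socs1* (SD 0.484) they included *Hsd11b2* at 0.188 and *Add2* at 0.192. For *Cish* (SD 0.193) they were *Supv3l1* at 0.0776, *Wsb1* at 0.0843 and *Prmt9* at 0.0859. *Bcl3* had log2 fold changes of 1.57 in WT mice, at an adjusted p of 0.0292, and 3.74 in *Adm*+/- mice, at an adjusted p of 0.000261, beside 1.597 and 3.71 for *Socs3*.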

How the data were processed

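The authors trimmed reads with Trim Galore, used HISAT2 for alignment to mm10 and featureCounts with a Gencode annotation. The deposited values are raw counts per gene, with no normalization. The kit is directional, and the strand option and Gencode release are not given in the sources used here. Positions come from Gencode M21. The 15885 of 21950 protein-coding genes (72.4%) that passed filterByExpr over 4 groups were scaled by TMM and fitted in all 12 libraries with edgeR 4.0.16 (R 4.3.3), quasi-likelihood F-test, 1 coefficient per group, 8 residual degrees of freedom. Standard errors were derived from the log2 fold change and its F statistic. P-values were adjusted over all tested genes within each of 5 contrasts. The steps were tested on simulated data. DESeq2 1.42.0, limma-voom (limma 3.58.1), a test against a log2 fold change of 0.5, other filters and left-out libraries were alternatives. None of the 12 within-group pairs held counts identical or within sampling noise. The labels state 3 mice per genotype and exposure, so replicates are mice. Genes named were all members, *Adm*, up to 3 called genes with the smallest p in *Adm*+/- mice and the most abundant gene of a list, and the nearest profiles, of which not all are printed. *Il11*, *Alox15*, *Ccl22*, *Fcer2a* and *Cx3cr1* are outside this rule, as are genes named only for being on more than 1 list. Members, lists and tests were chosen with earlier results of these data known.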

Additional observations from a re-analysis of the deposited data

How the results depend on the processing

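No paired analysis was possible because the groups share no replicate numbers in the labels. The counts of members called were 0 in WT, where the reported count is 3, in a test against a log2 fold change of 0.5 and when only the 6 WT libraries were fitted, and ranged from 0 (without WT LPS replicate 9) to 4 (without WT LPS replicate 11) when 1 library was left out. In *Adm*+/- mice the count ranged from 3 to 4. The counts of all genes called were, with the test against 0.5, 1001 in WT, 1695 in *Adm*+/- mice, 13 for the difference and 133 for genotype in LPS. They were 1152 in WT with only its 6 libraries. The difference gave 168 with DESeq2, 1 with limma-voom and 0 without both WT PBS replicate 4 and *Adm*+/- PBS replicate 7, a choice made after the values had been seen, and genotype in LPS gave 803, 285 and 213. Without both libraries high in *Gm26917* the latter was 548. With 1 library left out, these counts ranged from 1443 to 3074 in WT, 3033 to 4503 in *Adm*+/- mice, 5 to 65 for the difference and 81 to 573 for genotype in LPS.

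No called value changed sign. Without both libraries high in *Gm26917*, *Cish* in WT was −0.089, *Stat5b* in WT 0.036, *Stat4* in *Adm*+/- mice −0.036, *Stat5a* and *Stat6* for genotype in PBS 0.061 and 0.013, and *Stat6* for the difference −0.028. That fit also ended the WT calls of *Stat3* (0.72, adjusted p = 0.110) and *Socs3* (1.36, adjusted p = 0.0900) and the *Adm*+/- call of *Stat2* (1.0, adjusted p = 0.0923), and added a WT call of *Stat5a* (0.64, adjusted p = 0.0322). Without WT PBS replicate 4 and *Adm*+/- PBS replicate 7, genotype in PBS was 0.076 for *Cish*, −0.12 for *Socs1*, −0.049 for *Stat2* and −0.21 for *Stat4*, and the difference was 0.25 for *Stat4* and −0.018 for *Stat6*. With limma-voom *Stat4* was −0.076 for genotype in PBS and 0.10 for the difference, and over all annotated genes *Cish* in WT was −0.023. With 1 library left out, genotype in PBS ranged from −0.17 to 0.059 for *Cish*, −0.016 to 0.28 for *Socs1*, −0.37 to 0.35 for *Stat2*, −0.24 to 0.48 for *Stat4*, −0.19 to 0.088 for *Stat5a* and −0.12 to 0.037 for *Stat5b*. The WT response ranged from −0.12 to 0.14 for *Cish* and −0.10 to 0.036 for *Stat5b*, the *Adm*+/- response of *Stat4* from −0.044 to 0.68, genotype in LPS from −0.33 to 0.28 for *Stat4* and −0.073 to 0.021 for *Stat6*, and the difference from −0.44 to 0.27 for *Stat4* and −0.038 to 0.055 for *Stat6*. The cause of these changes was not tested. *Stat4* rests on the lowest counts, 6 to 55 per library.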

Other observations

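The per-length ratio of *Socs3* to *Socs1*, chosen after the values had been seen, was 1.65, 6.84 and 1.56 in WT PBS replicates 3, 4 and 5 and 36.5, 15.8 and 8.20 in WT LPS replicates 9, 10 and 11. In *Adm*+/- mice it was 1.47, 1.23 and 1.67 in PBS replicates 6, 7 and 8 and 32.7, 20.7 and 25.4 in LPS replicates 1, 2 and 12. WT PBS replicate 4 had the highest ratio of the 6 PBS mice.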
